A study of Homo sapiens with 6 samples.

Results

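Zinc is moved across membranes by a pair of carrier families and is buffered in the cytosol by metallothioneins. SLC30A carriers (ZnT proteins) take zinc out of the cytosol, either across the plasma membrane or into vesicles and organelles, and SLC39A carriers (ZIP proteins) bring it into the cytosol. Metallothioneins are small cysteine-rich proteins that bind zinc, copper and cadmium, and MTF1 is the zinc-sensing transcription factor that acts on metallothionein genes and on SLC30A1 through short promoter sequences called metal response elements. In kidney tubules, metallothioneins bind filtered cadmium.

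The genes examined were 10 SLC30A genes, 14 SLC39A genes, 10 metallothionein genes (MT1 genes and MT2A) and MTF1, in total 35 of 60683 genes in the count table. MT3 and MT4 were not among them. They were chosen by gene name, and 13 further names, all pseudogenes, antisense or divergent transcripts, were left out. Of the 35, 22 held enough counts to be tested and 13 did not. RNA was sequenced from RCC4, an established line of VHL-deficient human clear cell renal carcinoma cells, in 3 ATF4 KO libraries and 3 parental libraries (genotype given as wild type). No drug or stress treatment is given for any sample. ATF4 is the transcription factor that acts downstream of eIF2 phosphorylation. Neither the method of knockout nor its clonal state is stated, and a difference between clones cannot be told apart from the loss of ATF4. In bulk RNA, fewer cells of a kind and less RNA per cell cannot be told apart either.

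Libraries held 41002611 to 46755358 counts. Levels are given in CPM (read counts scaled by library size, with TMM factors), and fold changes are ATF4 KO over parental. A gene was called when its Benjamini-Hochberg adjusted p was below 0.05 in edgeR's quasi-likelihood test across all tested genes. ATF4 RNA itself, which need not fall when the reading frame is disrupted, was at 209.8, 223 and 209 CPM in ATF4 KO libraries, against 239.5, 251 and 243 CPM in parental libraries. Its log2 fold change was -0.19, but neighbouring genes on chromosome 22 were lower too, and with the median of tested genes within 10 Mb removed ATF4 stood at 0.08 (p_adj = 0.0328), so the direction turned. Of 7 listed genes of the integrated stress response, ATF4 included, 5 were lower, 1 was higher (SESN2, at 0.13) and 1 was not tested. Of all tested genes, 20.8% were called lower and 21.2% higher. With the regional median removed, 4 of the list were lower and 1 was higher, which was ATF4. SESN2 was then not called (0.05). NUPR1, a stress-response gene known as an ATF4 target, had the largest change of the list and averaged 8.09 ± 0.38 CPM in ATF4 KO cells and 73.5 ± 1.65 CPM in parental cells (SD, n = 3 each). All 10 renal epithelial and carcinoma markers passed the filter, with group means of 16.6 to 5166 CPM. Of these markers 3 were higher and 4 lower in ATF4 KO cells, where 42.0% of all tested genes were called. With the regional median removed, 2 markers were higher and 6 lower, and 5557 of all 15321 tested genes were called. CA9, a carbonic anhydrase driven by hypoxia-inducible factors, averaged 96.9 CPM in ATF4 KO cells and 16.6 CPM in parental cells. Its part in the results given here was not tested. The 14 immune, endothelial and erythroid markers had at most 10 counts in any library, and 5 of them had none.

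The promoters of 5 members are shown because metal response elements are the sequences through which MTF1 acts. Of the 35 members, 26 had an entry in the RefSeq promoter table (GRCh38.p14), with 35 start sites between them. Each window covers the 250 bases before the start. Capitals mark matches on both strands to TGCNCNC, a loose form of the metal response element core, and each match is called a core here. N stands for any base, so forms such as TGCTCCC in the MT1B window are included, and a stricter form was not searched.
MT2A, chr16:56608334-56608583, plus strand, expressed and higher in ATF4 KO cells: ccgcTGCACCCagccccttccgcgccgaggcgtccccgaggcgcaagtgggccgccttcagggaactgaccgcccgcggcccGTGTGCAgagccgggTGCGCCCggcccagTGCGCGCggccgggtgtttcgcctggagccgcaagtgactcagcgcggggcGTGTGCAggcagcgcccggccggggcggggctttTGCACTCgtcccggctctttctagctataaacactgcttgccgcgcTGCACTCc
MT1X, chr16:56682220-56682469, plus strand, expressed and higher in ATF4 KO cells: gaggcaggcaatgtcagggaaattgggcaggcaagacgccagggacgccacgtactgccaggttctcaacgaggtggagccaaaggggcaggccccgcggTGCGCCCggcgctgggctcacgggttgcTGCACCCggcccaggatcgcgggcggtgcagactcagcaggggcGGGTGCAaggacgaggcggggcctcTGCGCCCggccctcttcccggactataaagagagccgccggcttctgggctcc
SLC30A1, chr1:211579162-211579411, minus strand, expressed and higher in ATF4 KO cells: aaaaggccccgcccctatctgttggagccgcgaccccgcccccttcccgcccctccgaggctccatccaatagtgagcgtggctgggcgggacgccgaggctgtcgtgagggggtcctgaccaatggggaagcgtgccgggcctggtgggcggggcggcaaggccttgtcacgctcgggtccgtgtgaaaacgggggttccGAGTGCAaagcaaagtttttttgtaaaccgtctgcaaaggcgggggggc
MT1H, chr16:56669564-56669813, plus strand, with no counts in any library: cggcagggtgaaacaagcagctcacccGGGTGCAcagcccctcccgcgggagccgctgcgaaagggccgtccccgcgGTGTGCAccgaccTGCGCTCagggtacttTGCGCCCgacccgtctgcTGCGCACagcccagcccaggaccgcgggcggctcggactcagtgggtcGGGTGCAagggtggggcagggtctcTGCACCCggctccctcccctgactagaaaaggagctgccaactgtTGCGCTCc
MT1B, chr16:56651636-56651885, plus strand, with no counts in any library: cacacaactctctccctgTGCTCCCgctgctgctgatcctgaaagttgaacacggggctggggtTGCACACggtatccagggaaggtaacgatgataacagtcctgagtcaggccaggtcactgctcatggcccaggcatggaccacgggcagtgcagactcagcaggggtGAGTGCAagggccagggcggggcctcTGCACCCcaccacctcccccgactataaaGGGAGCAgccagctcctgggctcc

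The MT2A window held 7 cores, MT1X 4, MT1H 8 and MT1B 5, while SLC30A1 held 1. At least 4 cores were found in 1.77% of all 35116 windows and at least 1 in 49.1%. Of the metallothionein genes, only MT2A, MT1X, MT1H and MT1B had a window, so MT1E and MT1F were not covered. Among the metallothionein genes with a window, many cores were thus found in expressed ones as well as in those without counts. In MT2A, 1 core overlapped a hypoxia response core (ACGTG or GCGTG), and in the other windows printed none did. Among the 30 windows of SLC30A and SLC39A genes the count was at most 3, and 15 held none. The composite core TGATGNAA, which ATF4 and C/EBP factors bind as dimers, was in 0 of the 35 member windows and in 3.14% of all windows. The hypoxia core was in 21 of the 35 windows and in 43.2% of all windows. These counts describe letters in these windows and do not show binding.

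Of the 22 tested members, 10 were called higher and 4 lower in ATF4 KO cells, and 8 were not called. The called share was 63.6% of tested members, against 42.0% of all 15321 tested genes. In the upward direction the shares were 45.5% of members and 21.2% of all tested genes, and in the downward direction 18.2% of members and 20.8% of all tested genes. ATF4 KO and parental values did not overlap for 15 of the 22, against 49.6% of all tested genes. The changes were small. Only SLC30A4 and MT1X were called with an absolute log2 fold change of at least 0.5, which 9.07% of all tested genes reached. The median log2 fold change of the 22 was 0.06 and the median absolute value 0.19, against 0.01 and 0.16 over all tested genes. When the median fold change of the other tested genes within 10 Mb was removed from each gene, 9 members were higher and 4 lower. In that setting 2756 of all 15321 tested genes were called higher and 2801 lower. Nothing labels the replicates as separate cultures, so the p-values measure only the spread between these libraries, which may be technical.

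**Figure D1:**
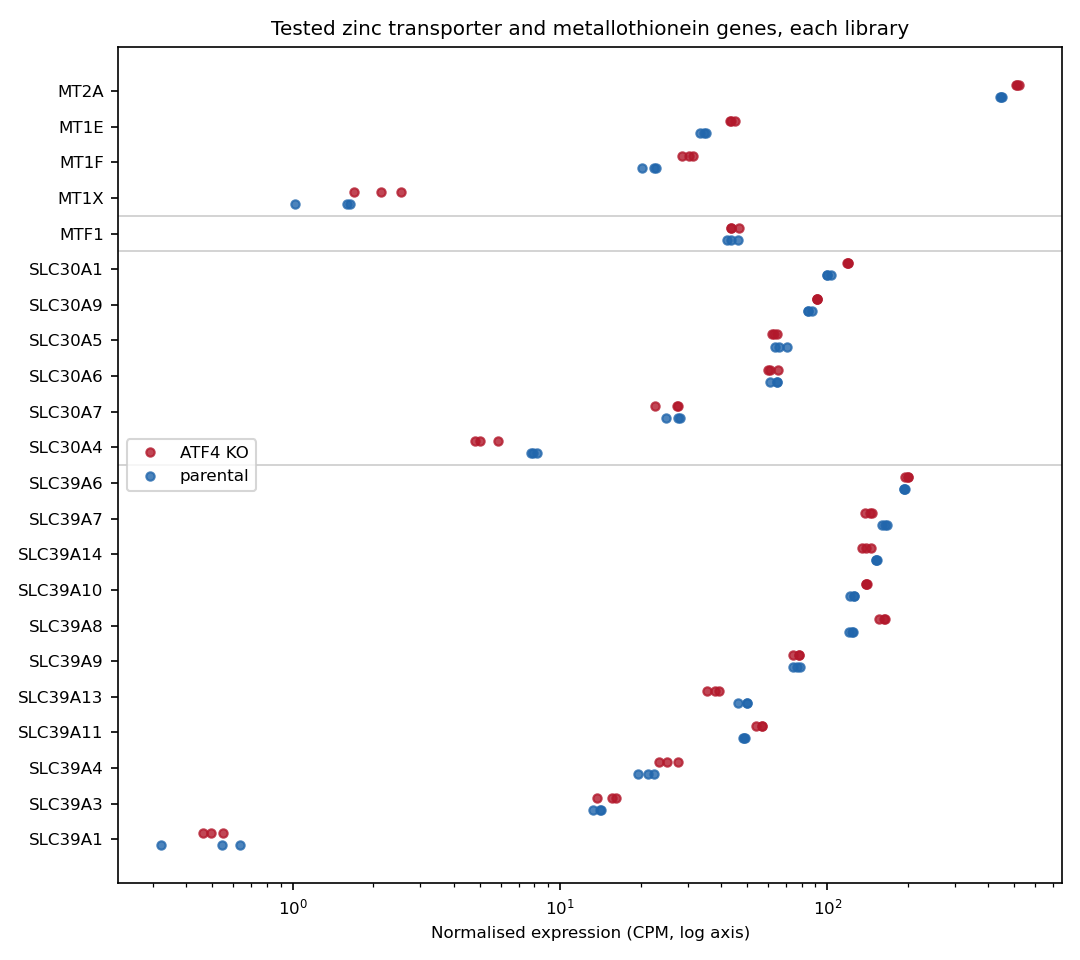
Normalised expression (CPM, log axis) of the 22 tested members in each library, with red points for ATF4 KO and blue points for parental RCC4 cells (n = 3 each). MT2A lies highest, at 509 to 521 CPM in ATF4 KO and 441 to 448 CPM in parental libraries, and SLC39A1 lowest, below 1 CPM.

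All 4 metallothionein genes with enough counts rose in ATF4 KO cells, where 21.2% of all tested genes were called higher. MT2A, the most abundant (ENSG00000125148, chromosome 16, 56608199 to 56609497, GRCh38), measured 521, 512 and 509 CPM in ATF4 KO libraries, against 448, 446 and 441 CPM in parental libraries. Every ATF4 KO library lay above every parental one, and the groups averaged 514 ± 6.17 CPM in ATF4 KO cells and 445 ± 3.72 CPM in parental cells (SD, n = 3 each). The log2 fold change was 0.21 (SE 0.027, edgeR p_adj = 4.58e-09), a 1.16-fold rise.

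MT1E measured 43.4, 43.7 and 45.0 CPM in ATF4 KO libraries, against 35.2, 33.5 and 34.5 CPM in parental libraries, without overlap. Its log2 fold change was 0.36 (SE 0.047, p_adj = 9.87e-09). MT1F measured 31.5, 30.2 and 28.7 CPM in ATF4 KO libraries, against 22.5, 22.8 and 20.3 CPM in parental libraries, again without overlap. Its log2 fold change was 0.46 (SE 0.058, p_adj = 1.70e-09), a 1.38-fold rise. MT1X had few reads, with 88, 118 and 80 counts in ATF4 KO libraries, against 71, 45 and 67 counts in parental libraries. Scaled for depth this was 2.14, 2.54 and 1.69 CPM in ATF4 KO libraries, against 1.63, 1.02 and 1.59 CPM in parental libraries, so that the nearest libraries of both groups almost met. The log2 fold change of MT1X was 0.58 (SE 0.20, p_adj = 0.0162). The call was lost with DESeq2 (p_adj = 0.0828), without ATF4 KO replicate 2 (p_adj = 0.149) and without parental replicate 2 (p_adj = 0.146). Over all 14 alternatives, the other 3 metallothioneins stayed called.

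**Figure D2:**
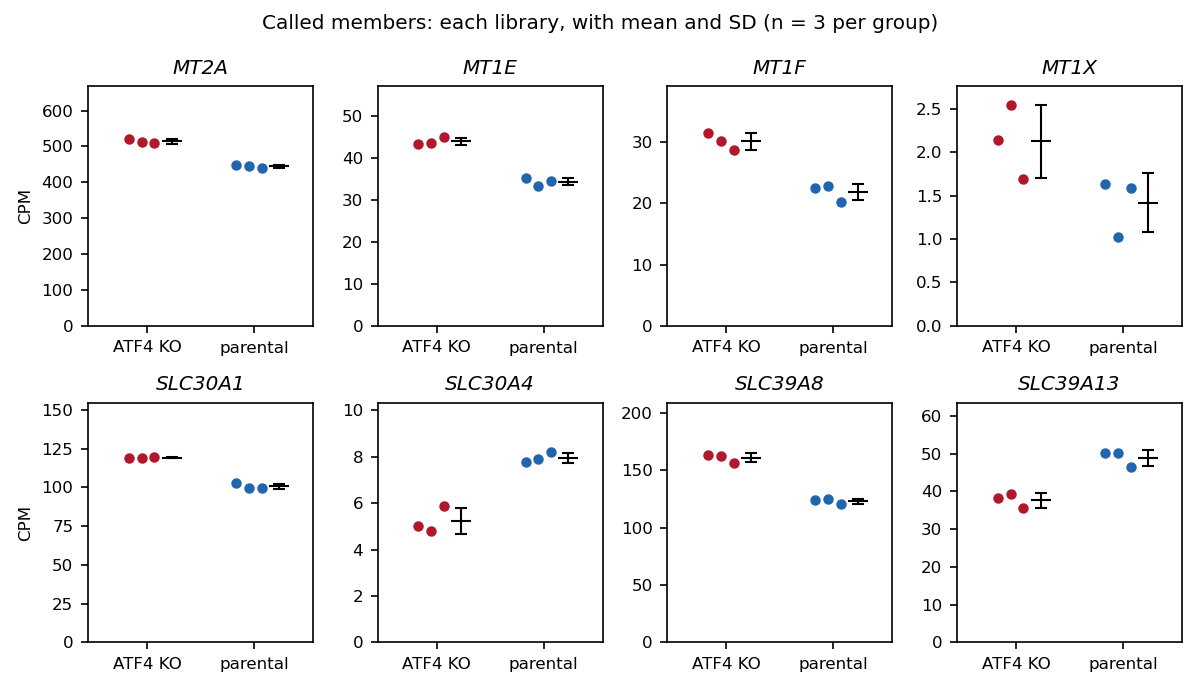
Normalised expression (CPM, axes from 0) of 8 called members in each library, with ATF4 KO in red at the left and parental in blue at the right of each panel, and black bars at the mean with whiskers of 1 SD (n = 3 per group). MT2A, MT1E, MT1F, MT1X, SLC30A1 and SLC39A8 lie higher in ATF4 KO cells, and SLC30A4 and SLC39A13 lower.

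The remaining 6 metallothionein genes were silent or nearly so. MT1A, MT1B, MT1H and MT1M had no count in any of the 6 libraries, which allows up to 0.0634 to 0.0729 CPM per library (3 counts, counting error only). MT1HL1, which lies on chromosome 1, had 1 count in total, in ATF4 KO replicate 3. MT1G had 0 counts over the ATF4 KO libraries and 1, 5 and 1 counts in the parental libraries, too few for a test. Summed over the 10 genes, metallothionein RNA amounted to 598, 589 and 585 CPM in ATF4 KO libraries, against 508, 503 and 497 CPM in parental libraries. The sum was thus 1.17 times as high in ATF4 KO cells. MT2A made up 87.1% ± 0.065 of it in ATF4 KO cells and 88.5% ± 0.19 in parental cells (SD, n = 3 each). MT1E made up 7.46% ± 0.23 in ATF4 KO cells and 6.85% ± 0.17 in parental cells, and MT1F 5.10% ± 0.18 in ATF4 KO cells and 4.35% ± 0.24 in parental cells. The pool therefore remained mostly MT2A, with slightly larger shares for MT1E and MT1F in ATF4 KO cells.

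Metallothionein genes resemble each other, and reads that fit several genes may not have been counted. Of the 75-base stretches in annotated transcripts, all were unique to the gene for MT2A and MT1F, 98.6% for MT1E and 94.3% for MT1G. For MT1X 85.7% were unique, and 18.1% of its exon bases are also annotated in another transcript on the same strand, AC026461.1, which had no counts. Reads of MT1X may therefore be under-counted, and the part of this in its fold change was not tested.

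MTF1 RNA showed no called change. It measured 46.6, 43.5 and 43.5 CPM in ATF4 KO libraries, against 46.3, 41.9 and 43.7 CPM in parental libraries. The groups overlapped. The log2 fold change was 0.02 (SE 0.047, p_adj = 0.801), with an approximate 95% interval from -0.07 to 0.11. The activity of MTF1 was not measured.

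Among the zinc exporters, 2 of 6 tested SLC30A genes rose, 1 fell and 3 were not called. Across all tested genes, 21.2% were called higher and 20.8% lower. With only 6 tested genes, these counts do not set the family apart from all tested genes. SLC30A1, the plasma membrane exporter, had the highest level per kilobase of exon among the tested SLC30A genes (ENSG00000170385, chromosome 1, 211571568 to 211578742). It measured 118.8, 118.9 and 119.4 CPM in ATF4 KO libraries, against 103, 99.8 and 99.6 CPM in parental libraries. The ATF4 KO libraries were nearly identical to each other and all higher than the parental ones, and the log2 fold change was 0.24 (SE 0.032, p_adj = 7.19e-09). With the regional median removed, SLC30A1 stood at 0.19 and stayed called. SLC30A9, a mitochondrial member, measured 91.7, 91.6 and 91.3 CPM in ATF4 KO libraries, against 84.4, 84.9 and 87.4 CPM in parental libraries. Its log2 fold change of 0.10 (SE 0.034, p_adj = 0.0170) lost its call without ATF4 KO replicate 1 (p_adj = 0.0544), without parental replicate 1 (p_adj = 0.0730) and without parental replicate 2 (p_adj = 0.0580).

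SLC30A4, which loads zinc into endosomal vesicles, had the largest fall of the 22 members (ENSG00000104154, chromosome 15, 45479611 to 45522807). It measured 5.01, 4.80 and 5.86 CPM in ATF4 KO libraries, against 7.77, 7.89 and 8.19 CPM in parental libraries. The groups lay well apart, and the mean fell to 5.22 ± 0.56 CPM in ATF4 KO cells, against 7.95 ± 0.21 CPM in parental cells (SD, n = 3 each). The log2 fold change was -0.61 (SE 0.11, p_adj = 4.75e-06), or 1.52-fold lower, and ranged from -0.70 to -0.55 when any 1 library was left out. The level was low beside that of SLC30A1. Per kilobase of exon, SLC30A4 stood at 0.647 CPM in ATF4 KO and 0.985 CPM in parental cells, and SLC30A1 at 21.8 CPM in ATF4 KO and 18.4 CPM in parental cells.

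The exporters of the early secretory pathway were not called. SLC30A5 and SLC30A6 act together as a heterodimer, and SLC30A7 serves the same compartment. SLC30A5 measured 63.0, 62.1 and 65.0 CPM in ATF4 KO libraries, against 63.9, 70.4 and 65.7 CPM in parental libraries, with a log2 fold change of -0.07 (interval -0.15 to 0.01). SLC30A6 measured 59.9, 61.2 and 65.5 CPM in ATF4 KO libraries, against 60.9, 64.9 and 64.7 CPM in parental libraries (-0.03, interval -0.11 to 0.05). SLC30A7 measured 22.6, 27.5 and 27.3 CPM in ATF4 KO libraries, against 28.2, 24.9 and 27.7 CPM in parental libraries (-0.06, interval -0.18 to 0.07). In all 3 genes the groups overlapped. SLC30A2, SLC30A3 and SLC30A8, vesicular exporters of specialised secretory cells and neurons, had no counts in any library, and SLC30A10, a manganese exporter, had 1. Summed over the family, SLC30A RNA was 367 ± 6.69 CPM in ATF4 KO cells and 351 ± 2.91 CPM in parental cells (SD, n = 3 each).

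**Figure D3:**
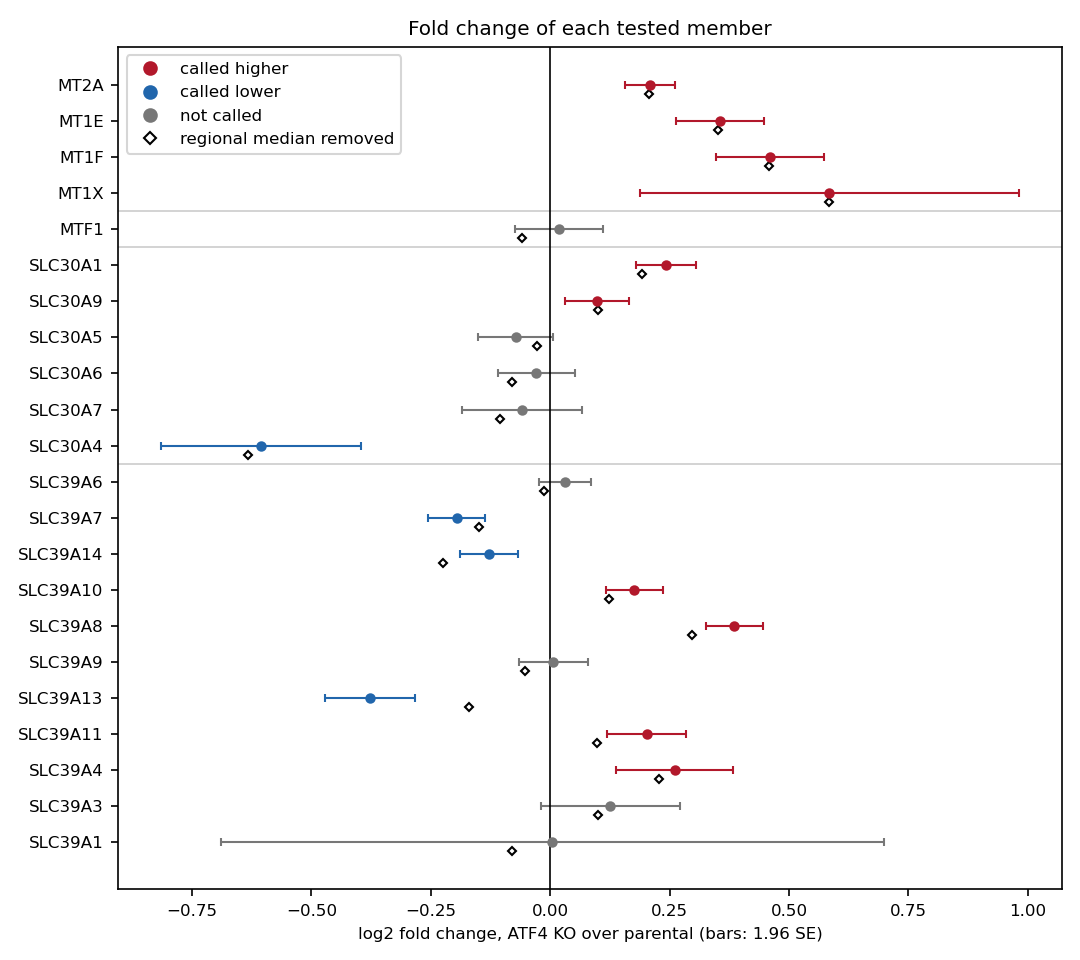
Log2 fold change (ATF4 KO over parental, n = 3 per group) of the 22 tested members with bars for the approximate 95% interval, in red where called higher, blue where called lower and grey where not called, with open diamonds for values after the median of genes within 10 Mb was removed. All 4 metallothioneins lie to the right of 0, from 0.21 to 0.58, and SLC30A4 lies lowest, at -0.61.

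Among the importers, 4 of 11 tested SLC39A genes rose, 3 fell and 4 were not called. The called share was 63.6%, against 42.0% of all tested genes. SLC39A8, a plasma membrane importer of zinc, manganese and cadmium, had the largest rise (ENSG00000138821, chromosome 4, 102251041 to 102431258). It measured 164, 162 and 156 CPM in ATF4 KO libraries, against 124, 125 and 120.5 CPM in parental libraries. All ATF4 KO libraries were higher, by far more than the spread within a group. The mean was 161 ± 3.88 CPM in ATF4 KO cells and 123 ± 2.29 CPM in parental cells (SD, n = 3 each). This gave a log2 fold change of 0.39 (SE 0.030, p_adj = 6.76e-16). Tested genes around SLC39A8 had a median log2 fold change of 0.09, and with that removed SLC39A8 stood at 0.30 (edgeR p_adj = 7.39e-12).

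Of the other importers that rose, SLC39A10, a plasma membrane importer, measured 139.4, 141 and 139.7 CPM in ATF4 KO libraries, against 126, 121 and 125 CPM in parental libraries (log2 fold change 0.18, SE 0.030). SLC39A4, the importer mutated in acrodermatitis enteropathica, measured 25.1, 27.6 and 23.4 CPM in ATF4 KO libraries, against 19.6, 22.5 and 21.4 CPM in parental libraries (0.26, SE 0.062). SLC39A11 measured 57.1, 56.7 and 54.2 CPM in ATF4 KO libraries, against 49.3, 48.5 and 48.2 CPM in parental libraries (0.20, SE 0.042). The groups of these 3 genes did not overlap, although SLC39A4 came close. SLC39A11 was not called when the median of its neighbours within 10 Mb on chromosome 17 was removed (0.10, p_adj = 0.0668). With their own regional medians removed, SLC39A10 stood at 0.12 and SLC39A4 at 0.23, and each stayed called.

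Of the 3 importers that fell, 2 release zinc from compartments of the secretory pathway. SLC39A13, which releases zinc from Golgi and vesicles and is mutated in a form of Ehlers-Danlos syndrome (ENSG00000165915, chromosome 11, 47407132 to 47416501), measured 38.1, 39.3 and 35.5 CPM in ATF4 KO libraries, against 50.2, 50.04 and 46.4 CPM in parental libraries. Its log2 fold change was -0.38 (SE 0.048, p_adj = 2.55e-09). Tested genes around SLC39A13 had a median log2 fold change of -0.21, and with that removed SLC39A13 stood at -0.17 (p_adj = 0.00362). SLC39A7, which releases zinc from the endoplasmic reticulum, measured 146, 145 and 138 CPM in ATF4 KO libraries, against 160.4, 167 and 164 CPM in parental libraries (-0.20, SE 0.030, p_adj = 3.03e-07). SLC39A14, an importer of zinc, iron and manganese at the plasma membrane (ENSG00000104635), measured 146, 139 and 134 CPM in ATF4 KO libraries, against 152.1, 152.2 and 153.5 CPM in parental libraries. The parental libraries were nearly identical and all higher, and the log2 fold change was -0.13 (SE 0.031, p_adj = 0.000512). Genes around SLC39A14 were higher, with a median of 0.09, and with that removed SLC39A14 stood at -0.22 (p_adj = 3.04e-08).

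SLC39A6, a plasma membrane importer and the SLC39A gene with the most counts, was not called. It measured 199.5, 196 and 199.9 CPM in ATF4 KO libraries, against 194, 195 and 193 CPM in parental libraries, a log2 fold change of 0.03 (SE 0.028, interval -0.02 to 0.09). The values did not overlap, but the gap between the nearest libraries was small beside the spread of each group. SLC39A9, a Golgi member, measured 78.0, 74.5 and 78.6 CPM in ATF4 KO libraries, against 74.4, 76.7 and 78.9 CPM in parental libraries (0.01, interval -0.07 to 0.08). SLC39A3 measured 15.6, 16.2 and 13.7 CPM in ATF4 KO libraries, against 14.3, 13.3 and 14.2 CPM in parental libraries (0.13, interval -0.02 to 0.27). SLC39A2 had 0 counts in ATF4 KO libraries and 3 in total in parental libraries, SLC39A5 had 1 to 8 counts in any library, and SLC39A12 had none. Summed over the family, SLC39A RNA was 994 ± 17.6 CPM in ATF4 KO cells and 968 ± 3.99 CPM in parental cells (SD, n = 3 each).

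SLC39A1, a plasma membrane importer that many cell types express, appeared almost absent, with 19, 23 and 26 counts in ATF4 KO libraries, against 14, 28 and 23 counts in parental libraries. Its log2 fold change was 0.00 (SE 0.35), with an interval from -0.69 to 0.70 too wide to place its change. Of its annotated exon bases 60.8% are shared with AL358472.7, a gene on the same strand, and only 47.3% of its 75-base stretches are unique. AL358472.7 had no counts in any library. Reads that fit both genes may not have been counted, so this level cannot be compared with that of other importers. SLC39A3, with 9.6% of its exon bases in such a gene, was less affected by this measure.

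Per kilobase of exon, MT2A was highest of the tested members, at 396 CPM in ATF4 KO and 343 CPM in parental cells. SLC39A6 and SLC39A7 came next and changed places, with SLC39A6 at 53.9 CPM and SLC39A7 at 50.3 CPM in ATF4 KO cells, against 52.7 CPM and 57.6 CPM in parental cells. SLC39A8 stood at 24.8 CPM in ATF4 KO and 19.0 CPM in parental cells, and SLC39A14 at 20.1 CPM in ATF4 KO and 22.0 CPM in parental cells. These 2 importers of zinc and manganese therefore stood in opposite order in the 2 groups, SLC39A8 being above SLC39A14 in ATF4 KO cells and below it in parental cells. The change of places of SLC39A6 and SLC39A7 depended on division by exon length. In plain CPM SLC39A6 was above SLC39A7 in both groups, at 198 against 143 in ATF4 KO cells and 194 against 164 in parental cells. No test between genes was run.

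**Figure D4:**
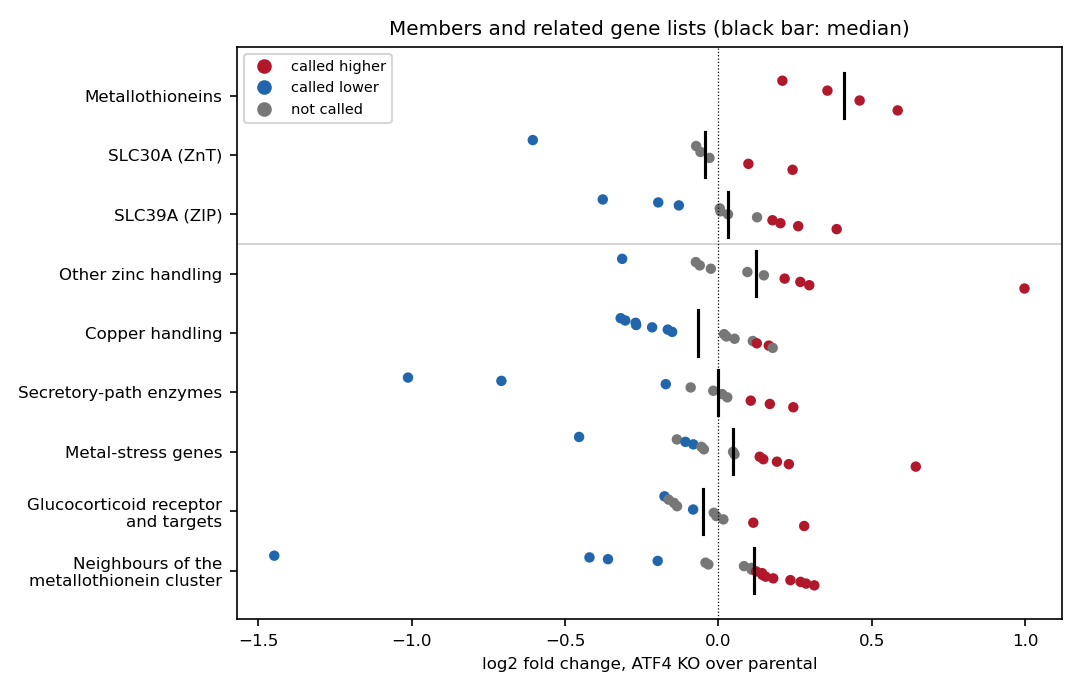
Log2 fold change (3 ATF4 KO against 3 parental libraries) for single members, in 3 classes above the grey line, and of 6 related gene lists below it, with red for called higher, blue for called lower and grey for not called, and black bars at the median. The metallothioneins have a median of 0.41, copper handling genes -0.07 and the neighbours of the metallothionein cluster 0.12.

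Other genes that handle metals were described from the same fit. Of all 15321 tested genes, 21.2% were higher and 20.8% lower. With the regional median removed, 2756 of them were higher and 2801 lower. Of 10 tested genes in a list for other zinc handling, 4 were higher and 1 was lower. ZNG1A and ZNG1B, zinc chaperones, were at 0.27 and 0.30, KCTD9 at 0.22 and ZNG1F at 1.00, while MCOLN1, a lysosomal cation channel, was at -0.31. The ZNG1 genes are near-identical copies, so their counts are uncertain. MT3 and MT4, metallothioneins outside the 35 genes, had no counts. After removal of the regional median (genes within 10 Mb), 2 of the 10 were higher and 2 lower. Of 14 copper handling genes, 2 were higher and 7 lower. The lower ones included superoxide dismutase SOD1 (-0.30), the copper pump ATP7A (-0.32), the metalloreductase STEAP2 (-0.27) and the copper chaperone SCO2 (-0.27). SOD1, ATP7A and SCO2 lie on chromosomes 21, X and 22, and after removal of the regional median none of these 3 was called (0.07, -0.08 and 0.01). Copper genes called after this removal numbered 3 lower and 0 higher, with STEAP2 at -0.27.

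Of 13 metal-stress genes other than metallothioneins, 5 were higher and 3 lower, where 21.2% of all tested genes were higher and 20.8% lower. With the regional median removed, 6 were higher and 2 lower. HSPA8 was called lower at -0.08 and then higher at 0.07 (edgeR p_adj = 0.0473). HMOX1, the heme oxygenase, rose by 0.13, the chaperone HSPA1B by 0.23 and GCLM, a subunit of the glutathione-synthesis enzyme, by 0.19 on the log2 scale. SLC7A11, the cystine transporter, fell by 0.45. HSPA1B shares most of its sequence with HSPA1A, and the division of reads between them is uncertain. HMOX1 lies on chromosome 22, where neighbouring genes were lower, and stood at 0.40 with their median removed. Among 10 tested genes of the glucocorticoid receptor list, a hormone axis that can raise MT2A, 2 were higher (PER1 and SGK1, at 0.28 and 0.11) and 2 lower (FKBP5 and DUSP1, at -0.18 and -0.08), and the receptor NR3C1 was not called (0.02). Of 10 tested enzymes and factors that mature in the secretory pathway, 3 were higher and 3 lower. Among them were the sphingomyelinase SMPD1 at -0.71, the protease ADAM10 at 0.17, PAM at 0.11 and ENPP2 at -1.01. After removal of the regional median, 2 were higher and 2 lower in this list and in the glucocorticoid receptor list alike.

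Genes that flank the metallothionein cluster on chromosome 16 moved both ways, more of them up than down. Of 18 tested neighbours, 9 were higher and 4 lower, with a median of 0.12. Of all tested genes, 21.2% were called higher and 20.8% lower. With the regional median removed, 7 neighbours were higher and 5 lower. NUP93, a nuclear pore protein, and NUDT21, an RNA processing factor, were at 0.31 and 0.23. SLC12A3, the thiazide-sensitive cotransporter of the distal tubule, was at -1.45 and HERPUD1, a factor of endoplasmic reticulum degradation, at -0.42. The median of tested genes within 10 Mb of MT2A was 0.00, and with it removed the 4 metallothioneins stood at 0.21 (MT2A), 0.35 (MT1E), 0.46 (MT1F) and 0.58 (MT1X), all called. That median lies below the 0.12 of the nearer neighbours, so its removal does not take out their lean.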

How the data were processed

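RCC4 ATF4 KO (n = 3) and parental (n = 3) samples were grouped by their labels. The authors deposited raw counts of reads per Ensembl gene, from stranded mRNA libraries; the submitters' processing notes name bcl2fastq 2.20, cutadapt, STAR, HTSeq and the build GRCh38. For other versions, the annotation and the strand setting: not given in the sources used here. Symbols came from a gene name table (60370 of 60683 IDs) and GENCODE 29 (289 more), which also gave coordinates, exon lengths and overlaps.

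Genes passing edgeR's filterByExpr (15321) were tested in R 4.3.3 with edgeR 4.0.16 (TMM factors, robust quasi-likelihood F test, no replicate term), with Benjamini-Hochberg adjustment over all of them. SE is the absolute log2 fold change divided by the root of F, and intervals are approximate 95% intervals from it. Alternatives used DESeq2 1.42.0, limma 3.58.1 (voom), RLE or total-count scaling, other filters (none, or a mean of 1 CPM), each library left out, a replicate term, and an offset equal to the median log2 fold change of at least 10 tested genes within 10 Mb (members left out). Replicates differed by 3.59 to 5.80 times sampling noise, so none was a duplicate. On simulated counts for this comparison over 15115 genes, the test recovered 56% of 50 genes changed 1.2-fold, 68% at 1.5-fold, 86% at 2-fold and 96% at 4-fold. Of the calls, 5.56% were unchanged genes. Far fewer genes were changed there than the 42.0% called in the real comparison, so recovery in the real comparison may differ. Members and gene lists were chosen with earlier results of these data known. All tested members are named, and of each related list up to 4 called genes with the smallest p-values. Some others (MT3, MT4, NR3C1, ZNG1F, SESN2, CA9, HSPA8) were named after their values were seen. Full statistics were planned for called members with an absolute log2 fold change of at least 0.5, the most abundant member of each class and MTF1; other members were given them after their values were seen.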

Additional observations from a re-analysis of the deposited data

How the results depend on the processing

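The count of called members was stable over the 14 alternatives: 8 to 10 were higher and 4 were lower in each. With the replicate block it was 10 higher and 4 lower. Same-numbered libraries did not deviate together across all tested genes (r from -0.028 to 0.006). This shows no broad pairing by number, but a weak one could give such values too. Of 307 single-gene values, 287 kept their direction and side of the threshold, 7 lost a call (MT1X, SLC30A9 and SLC39A11, given above) and 13 changed sign, all in uncalled genes. With the regional median removed, MTF1 was at -0.059, SLC39A1 at -0.081, SLC39A6 at -0.013 and SLC39A9 at -0.053; with DESeq2, SLC39A1 was at -0.0021. Leaving out 1 library gave -0.021 to 0.056 for MTF1, -0.11 to 0.020 for SLC30A7, -0.23 to 0.22 for SLC39A1 and -0.015 to 0.031 for SLC39A9. The cause was not tested. Depth limits MT1X and SLC39A1 most, at 45 to 118 and 14 to 28 counts per library.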
